A study of Mus musculus with 16 samples.

Results

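Gene and repeat transcripts were compared between 2-cell mouse embryos in which Suv39h2 had been knocked down and embryos that had not been injected. The knockdown group holds 6 libraries of embryos whose zygotes received double-stranded RNA targeting Suv39h2, and the non-injected group holds 4, together 10 of the 16 libraries of the series. A further 6 libraries, whose zygotes received double-stranded RNA for the bacterial gene LacZ, are a control for injection. Their own values appear only beside those of the knockdown, but the mean counts used here are read as including these libraries. All embryos had a DBA father and an F1 mother (C57BL/6J × CBA/H). They were grown in KSOM, a medium for early embryos. Per the design text a library is a pool of 5 embryos, whereas the labels speak of a single embryo. A treatment label names Suv39h1 messenger RNA, which no group received according to the other labels. Of 49585 gene identifiers, the 14830 with a mean normalized count of 10 or more over the libraries are described, and of 1143 repeat elements the 858 that reach the same level.

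The knockdown libraries differ from the non-injected ones both in Suv39h2 and in having been injected, and these cannot be told apart within the comparison. Values against LacZ control, and of LacZ control over non-injected, are therefore given beside those of single genes and lists. The 3 comparisons share their libraries and are not independent of each other. The values of the 3 gene comparisons add up, so the 3 groups, LacZ control included, are read as fitted together. All single values are the authors' own and come from DESeq2, a negative binomial model of counts: a log2 fold change shrunken towards 0 with its standard error, and a p adjusted by the method of Benjamini and Hochberg (BH). The p goes with a Wald statistic that, for weakly expressed genes, was not the shrunken value divided by its standard error. A gene is called when the deposited adjusted p is under 0.05. The tables hold means only, so no value of a single library can be given and the depth of each library is unknown. Whether pools came from separate injections is not stated, and the p-values measure the spread between these libraries, which may be in part technical. In pools, fewer embryos carrying a transcript and less of it in each embryo cannot be told apart.

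Suv39h2 encodes a methyltransferase that places the H3K9 trimethyl mark of constitutive heterochromatin, which is bound by HP1 proteins and which covers the satellite repeats around centromeres. The mouse 2-cell embryo is where transcription of the embryonic genome becomes strong, while messages inherited from the oocyte are cleared. Transcripts of the MERVL retrovirus and of the Zscan4, Tdpoz and Tcstv genes mark this stage, and genes for making ribosomes belong to those whose transcription rises with activation.

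The targeted transcript was lower. Suv39h2 (ENSMUSG00000026646.16, chromosome 2 of GRCm38, 3455815 to 3475031, minus strand, protein-coding) had a mean normalized count of 272. Its log2 fold change per the authors' deposited table was -1.79 ± 0.29 (standard error), 3.47-fold lower in knockdown (BH-adjusted p = 2.21e-06). Against LacZ control its deposited log2 value was -1.95 ± 0.28, and LacZ control over non-injected stood at 0.16 ± 0.29 per the authors' deposited table. Dclre1c, a DNA repair nuclease whose exons overlap those of Suv39h2 on the opposite strand, stood at -1.17 ± 0.35 per the authors' deposited table (BH-adjusted p = 0.0142). Smart-seq2 does not record strand, so reads in that overlap cannot be assigned to one of the 2 genes. The paralog Suv39h1 stood at -0.46 ± 0.20 and was not called (BH-adjusted p = 0.101 per the authors' deposited table).

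Across all genes tested, 2268 of 14830 were called (15.3%), 1108 higher (7.47%) and 1160 lower (7.82%) in knockdown. Of the same genes, 140 were called against LacZ control (0.944%) and 93 between LacZ control and non-injected (0.627%). The median log2 fold change of all genes was 0.05. Among called genes it was 0.96 for those higher and -0.84 for those lower, and 481 and 255 of them reached 1 and -1. Direction moved with the level of the gene. From mean counts of 10 to 30, 4.27% of 3440 genes were called higher and 0.814% lower, whereas at 1000 or more 9.78% of 1391 were higher and 20.6% lower. Genes called higher had a median mean count of 174 and those called lower 530. Whether that level takes part in the difference between gene groups was not tested, and the median level is given beside the counts of some groups only. At the edge of the minimum, 12 of 319 genes with a mean count of 10 to 11 were called and 0 of 364 with 9 to 10, where most have no deposited adjusted p.

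**Figure D1:**
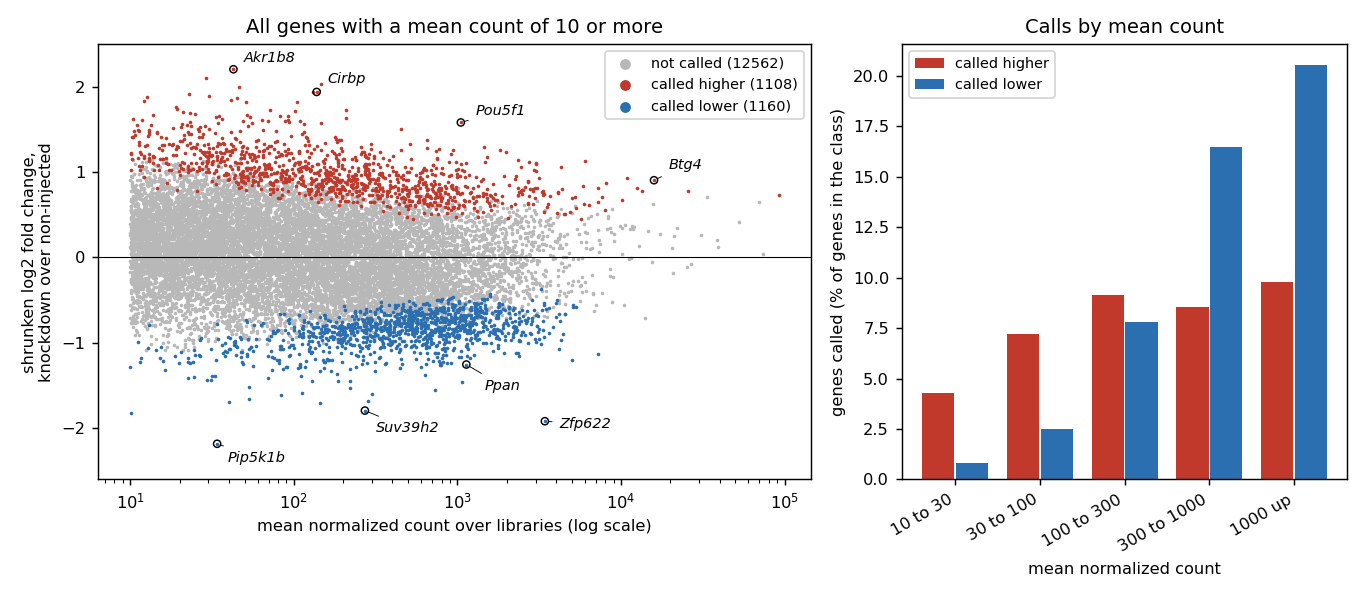
Left, the log2 fold change of each gene against its mean normalized count (log axis), with genes called higher in red, called lower in blue and others in grey. Right, the percent of genes called in each class of mean count: lower calls rise from 0.814% at counts of 10 to 30 to 20.6% at 1000 or more, and higher calls from 4.27% to 9.78%.

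Of 1433 long noncoding genes 104 were called higher (7.26%) and 48 lower (3.35%), and of 12449 protein-coding genes 951 (7.64%) and 1089 (8.75%). The noncoding group has a median mean count of 35.5 against 146 for protein-coding genes. All genes with mean counts of 30 to 100 had 7.22% called higher and 2.48% lower. Chromosome X had 32 genes higher (6.00%) and 19 lower (3.56%) of 533, against 7.47% and 7.82% of all genes. The share of genes whose exons overlap another gene on the opposite strand was 32.5% among called genes and 33.7% among all genes described.

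The single genes with the largest Wald statistics came from several processes. Cirbp, a cold-inducible RNA-binding protein (chromosome 10, 80165985 to 80172786), was 3.83-fold higher in knockdown, at 1.94 ± 0.29 per the authors' deposited table (BH-adjusted p = 1.85e-07), with 0.80 against LacZ control. Car9, a carbonic anhydrase, rose by 1.37 ± 0.22 and Deptor, an inhibitory partner of the mTOR kinase, by 0.95 ± 0.16 per the authors' deposited table (BH-adjusted p = 2.21e-06 and 2.58e-06). Both overlap exons on the opposite strand. Lgals1, a galectin, rose by 2.03 ± 0.33 and Akr1b8, an aldo-keto reductase, by 2.20 ± 0.37 per the authors' deposited table (BH-adjusted p = 3.38e-06 for each). The other genes among the 12 largest statistics were Pou5f1, the phosphatase Ptpre, the importin Kpna7, the junction protein Ildr1, the scaffold protein Ahnak, the ubiquitin ligase adaptor Skp1a and the phosphoprotein-binding adaptor Ywhaz, between 1.01 and 1.72 per the authors' deposited table. Against LacZ control the 12 stood between 0.17 (Skp1a) and 1.35 (Lgals1) per the authors' deposited table, and in LacZ control over non-injected between 0.51 (Deptor) and 1.15 (Akr1b8). The first of the 3 comparisons is the sum of the other two, so the signs are not independent.

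At the other end, Kcnk6, a potassium channel (chromosome 7, 29221926 to 29232515), was 3.26-fold lower at -1.71 ± 0.26 per the authors' deposited table (BH-adjusted p = 1.85e-07). Chek2, a checkpoint kinase of the DNA damage response, stood at -1.25 ± 0.20, and Klf9, a Kruppel-like transcription factor, at -1.61 ± 0.27 per the authors' deposited table (BH-adjusted p = 2.21e-06 and 2.58e-06). Tnpo3, which imports splicing factors into the nucleus and overlaps Irf5, fell by 1.12 ± 0.19 per the authors' deposited table (BH-adjusted p = 8.74e-06). The lipid kinase Pip5k1b, a weakly expressed gene, had the lowest value of any gene described, -2.18 ± 0.39 per the authors' deposited table (BH-adjusted p = 9.40e-06). Zfp622, Prrc2c, Trir, Pa2g4, Tbl3 and Ubxn2a completed the 12 smallest statistics with Suv39h2, between -1.92 and -0.96 per the authors' deposited table. In LacZ control over non-injected Suv39h2 was positive, and the other 11 of these 12 stood between -1.10 (Pip5k1b) and -0.33 (Prrc2c) per the authors' deposited table.

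Of long noncoding genes called, the largest values were those of Gm20463, Gm26793 and Gm2479, at 1.66, 1.62 and 1.57, and the smallest those of A330008L17Rik, Gm26571 and Gm47043, at -1.32, -1.24 and -1.23 per the authors' deposited table. Gm26793 overlaps exons of Fgf15 on the opposite strand. Exons of Cdc20, Gspt1, Fam208a, Oip5 and Tbl3, all called lower and described among their groups, also overlap another gene on the opposite strand.

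**Figure D2:**
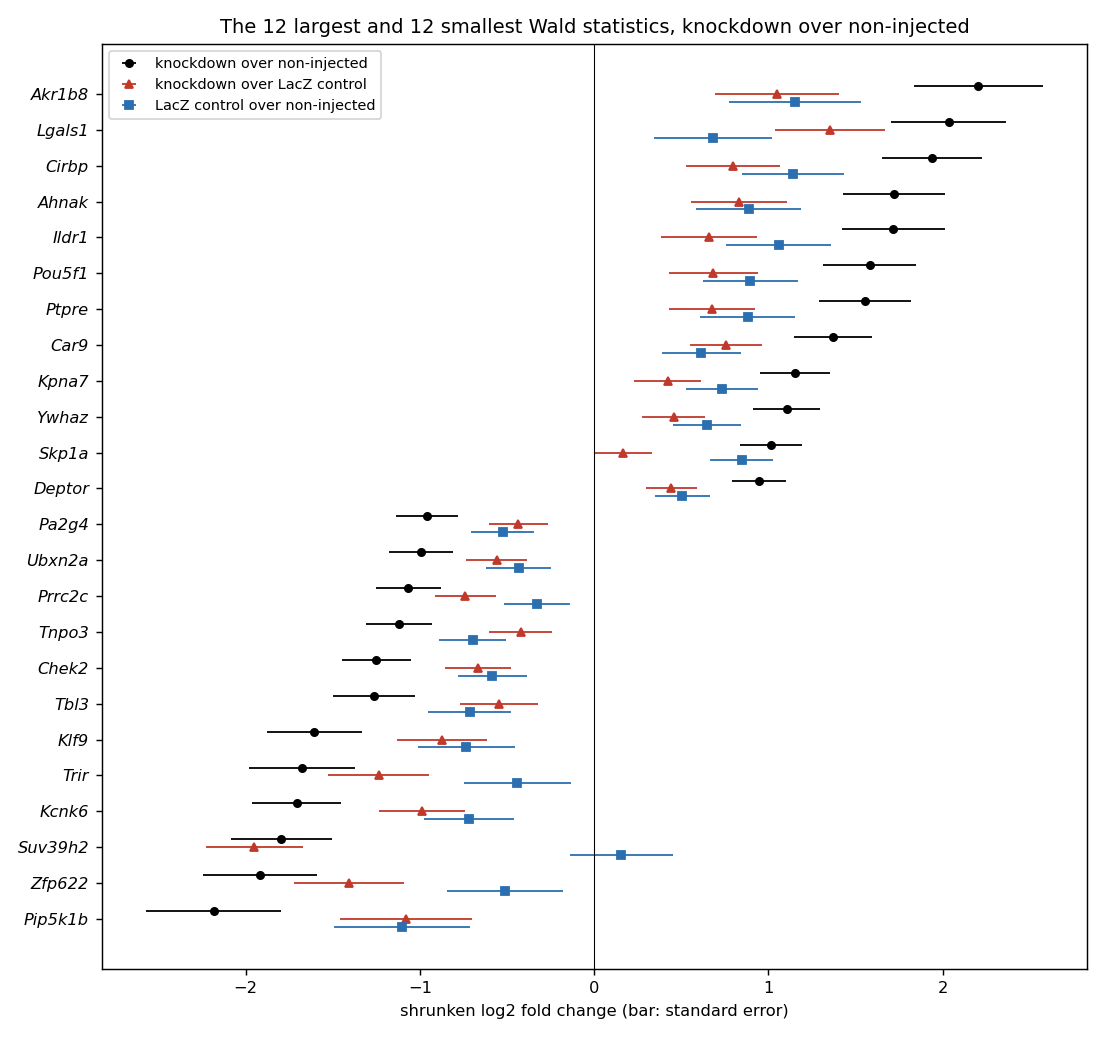
Log2 fold change with its standard error for the 12 genes with the largest and the 12 with the smallest Wald statistic, in knockdown over non-injected (black), knockdown over LacZ control (red) and LacZ control over non-injected (blue). Suv39h2 is the gene whose LacZ control value, 0.16, lies on the other side of 0 from its knockdown values.

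Among the gene lists examined, the 5 on ribosome production held the largest shares of genes called lower. All gene lists, those of oocyte genes included, were chosen with earlier results of these data known. Their shares and order are therefore a description and not a test. Of 52 factors that assemble the large ribosomal subunit 33 were called lower (63.5%, against 7.82% of all genes) and 0 higher, with a median log2 fold change of -0.74 and 51 members negative. Of 47 members of the small subunit processome, the particle that shapes the precursor of the small subunit, 26 were called lower (55.3%) and 0 higher, with a median of -0.72. Of 86 cytosolic ribosomal proteins 40 were called lower (46.5%) and 0 higher, with a median of -0.62. These lists have median mean counts of 819, 787 and 544, in a class where 16.5% of genes were called lower. Their medians against LacZ control were -0.47, -0.45 and -0.47, and in LacZ control over non-injected -0.27, -0.22 and -0.14, in the same order. Adjustment over every deposited p-value left 25, 17 and 29 of the calls.

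Among large subunit factors, Zfp622 (chromosome 15, 25984366 to 25998481), which acts in late maturation of the subunit, was 3.78-fold lower, -1.92 ± 0.33 per the authors' deposited table (BH-adjusted p = 9.40e-06), with -1.41 against LacZ control. Ppan stood at -1.26 ± 0.25 (BH-adjusted p = 0.000111) and Nop53, which guides an RNA helicase to the preribosome, at -0.99 ± 0.19 (BH-adjusted p = 6.81e-05) per the authors' deposited table. The exons of Ppan also contain the annotated small genes Gm23008 and Gm24067 on the same strand. Urb1, a nucleolar scaffold protein, fell by 1.61 ± 0.38 per the authors' deposited table (BH-adjusted p = 0.000691). In the processome, Tbl3 stood at -1.26 ± 0.24, the helicase Ddx10 at -1.25 ± 0.23, Utp18 at -1.14 ± 0.26 and Rcl1 at -0.88 ± 0.20 per the authors' deposited table (BH-adjusted p from 3.87e-05 to 0.000642). Among ribosomal proteins, Rps9 stood at -0.90 ± 0.18 per the authors' deposited table (BH-adjusted p = 0.000156). Rplp0, a stalk protein of the large subunit, was not called, with -0.33 ± 0.21 per the authors' deposited table (BH-adjusted p = 0.284). Ribosomal protein genes have many processed copies in the genome, and reads shared with those copies may have been counted differently from unique ones.

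Promoters of these genes were searched for short motifs. Windows from 250 bases before to 50 after the RefSeq start nearest to the annotated gene start were available for 9813 of the 12449 protein-coding genes. The letters CCGGAAG, searched on both strands, were in 18.2% of all 9813 windows. They were in 50.0% of 42 large subunit assembly genes, 46.2% of 39 processome genes and 38.5% of 65 ribosomal protein genes. The share did not follow the calls across lists: the letters were in 43.6% of 39 spliceosome genes and 32.9% of 70 mitochondrial ribosomal protein genes, a list with 6 calls, but in 8 of 40 mitosis genes and 9 of 45 nuclear transport genes. Genes called lower held them in 28.4% of 858 windows, and in 27.1% of 780 once the 3 ribosome lists were left out, against 12.8% of 744 genes called higher. The level of the gene moves with the motif too: at a mean count of 300 or more it was in 29.3% of genes called lower, 21.8% of genes not called and 14.7% of genes called higher. A match is a description of the letters and not of a bound factor. Windows of 4 called genes with the motif are shown because they carry it at different places, and that of Kpna7, an oocyte gene called higher, because it holds neither the motif nor many CpG dinucleotides (4, against 18 to 28 in the other 4). Sequences are from RefSeq on GRCm38.p6, with each match in capitals: Ppan at chr9:20887925-20888224 (plus strand), Utp18 at chr11:93885717-93886016 (minus), Ddx10 at chr9:53248063-53248362 (minus), Rps21 at chr2:180257129-180257428 (plus) and Kpna7 at chr5:145009587-145009886 (minus).
Ppan: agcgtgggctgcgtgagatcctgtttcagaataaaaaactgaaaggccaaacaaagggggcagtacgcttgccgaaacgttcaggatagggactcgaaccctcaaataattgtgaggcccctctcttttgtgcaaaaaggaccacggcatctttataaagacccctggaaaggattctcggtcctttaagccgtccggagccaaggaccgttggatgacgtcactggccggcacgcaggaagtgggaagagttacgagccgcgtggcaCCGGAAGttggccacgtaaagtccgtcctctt
Utp18: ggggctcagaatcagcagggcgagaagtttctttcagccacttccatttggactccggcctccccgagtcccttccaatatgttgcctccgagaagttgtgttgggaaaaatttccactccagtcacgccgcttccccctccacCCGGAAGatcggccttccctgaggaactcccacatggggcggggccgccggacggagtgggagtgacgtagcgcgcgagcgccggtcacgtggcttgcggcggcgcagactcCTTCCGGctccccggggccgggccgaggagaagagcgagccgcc
Ddx10: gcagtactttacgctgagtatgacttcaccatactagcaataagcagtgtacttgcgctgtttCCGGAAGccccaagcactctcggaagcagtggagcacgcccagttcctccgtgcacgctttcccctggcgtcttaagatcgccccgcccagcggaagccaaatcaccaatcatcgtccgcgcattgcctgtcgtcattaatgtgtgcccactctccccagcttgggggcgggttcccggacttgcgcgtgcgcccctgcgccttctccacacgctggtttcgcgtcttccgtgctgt
Rps21: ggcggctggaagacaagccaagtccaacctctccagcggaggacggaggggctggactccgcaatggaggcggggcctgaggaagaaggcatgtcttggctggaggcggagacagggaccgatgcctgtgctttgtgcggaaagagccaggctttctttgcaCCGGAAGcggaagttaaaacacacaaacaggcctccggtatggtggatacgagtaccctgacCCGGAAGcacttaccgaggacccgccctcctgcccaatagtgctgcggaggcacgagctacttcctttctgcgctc
Kpna7: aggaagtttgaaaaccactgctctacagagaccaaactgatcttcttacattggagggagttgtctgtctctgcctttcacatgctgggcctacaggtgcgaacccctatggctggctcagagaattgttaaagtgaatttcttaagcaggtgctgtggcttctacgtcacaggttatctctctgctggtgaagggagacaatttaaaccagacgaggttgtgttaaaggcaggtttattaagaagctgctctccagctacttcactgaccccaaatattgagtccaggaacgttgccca
Ppan and Ddx10 hold 1 copy each and Utp18 and Rps21 hold 2. Rps21, a small subunit protein, stood at -0.86 ± 0.23 per the authors' deposited table (BH-adjusted p = 0.00462). The other motifs searched on both strands separated the groups less: TATAAA was in 10.8% of windows of genes called higher and 7.23% of those called lower, against 7.25% of all, GGGCGG in 60.6% and 66.0% against 62.8%, CCAAT in 35.9% and 40.6% against 39.9%, and TGACGTCA in 2.55% and 4.90% against 3.28%. CACGTG was in 8.33% of windows of genes called higher and 12.9% of those called lower, against 10.1% of all, and in 7.69% of ribosomal protein, 16.7% of large subunit and 30.8% of processome genes.

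Other parts of the ribosome supply moved in the same direction. All 13 proteins of the small nucleolar ribonucleoproteins, which modify ribosomal RNA, had negative values and 6 were called lower, among them Dkc1, the pseudouridine synthase, at -0.97 ± 0.27 and Fbl, the methyltransferase fibrillarin, at -0.80 ± 0.25 per the authors' deposited table (BH-adjusted p = 0.00647 and 0.0191). All 20 members of the RNA polymerase I list were negative and 10 were called lower (median -0.59), among them Polr1e, a polymerase subunit, at -0.72 ± 0.17 and Taf1b, part of its promoter factor, at -1.07 ± 0.26 per the authors' deposited table (BH-adjusted p = 0.00161 and 0.00276). Ubtf, which binds the ribosomal RNA genes, was not called, at -0.51 ± 0.26 per the authors' deposited table (BH-adjusted p = 0.160). Mitochondrial ribosomal proteins stood nearer to all genes, with 6 of 81 called lower (7.41%) and a median of -0.21.

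Of 72 translation factors 24 were called lower (33.3%) and 4 higher (5.56%), with a median of -0.37. When every p-value shared the adjustment, 17 of these calls were left. The list's median mean count was 557, in a class where 16.5% of all genes were called lower and 8.53% higher. Gspt1, a termination factor, stood at -1.55 ± 0.30, and the initiation subunits Eif3g and Eif3a at -1.19 ± 0.24 and -0.94 ± 0.23 per the authors' deposited table (BH-adjusted p = 8.47e-05, 0.000115 and 0.00161). The 4 called higher included 2 made by oocytes. They were the cap-binding protein Eif4e1b, at 0.84 ± 0.26, and the poly(A)-binding protein Pabpc1l, at 1.40 ± 0.34 per the authors' deposited table (BH-adjusted p = 0.0186 and 0.00214), while the general poly(A)-binding protein Pabpc1 fell by 0.85 ± 0.22 (BH-adjusted p = 0.00280). The others were Eif1b and Eif4ebp1, a repressor of cap binding, whose calls were lost when every p-value shared the adjustment (adjusted p = 0.0923 and 0.0568). Of 22 aminoacyl-tRNA synthetase genes 3 were called lower (13.6%) and 1 higher (4.55%). Their median mean count was 331, in a class where 16.5% of all genes were called lower.

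Splicing, nuclear transport and mitosis genes held more lower calls than all genes did. In the spliceosome list 15 of 46 were called lower and 0 higher (median -0.54), among them the splicing regulator Srsf2 at -1.12 ± 0.28 and the core protein Snrpb at -0.90 ± 0.22 per the authors' deposited table (BH-adjusted p = 0.00210 and 0.00250). Of 56 nuclear transport genes 19 were called lower and 1 higher. The importin recycling factor Cse1l stood at -0.96 ± 0.21 and the exportin Xpo1 at -0.87 ± 0.24 per the authors' deposited table (BH-adjusted p = 0.000562 and 0.00460), and the 1 called higher was the oocyte importin Kpna7, at 1.15 ± 0.20 (BH-adjusted p = 9.40e-06). Mitosis genes had 17 of 46 called lower and 3 higher (median -0.52). The spindle motor Kif11 stood at -0.84 ± 0.17 and the centromere protector Sgo2a at -0.86 ± 0.19 per the authors' deposited table (BH-adjusted p = 0.000174 and 0.000366), whereas the kinetochore genes Nuf2 and Cenpn and the centriole kinase Plk4 were called higher, at 0.67, 0.75 and 0.64. The mitotic kinases Plk1 and Aurkb were not called, at -0.58 ± 0.31 and -0.59 ± 0.29. The anaphase activator Cdc20, a member of another list, fell by 1.20 ± 0.24 per the authors' deposited table (BH-adjusted p = 0.000204). That list, of cyclins, their kinases and the anaphase-promoting complex, had 5 of 55 called lower (9.09%) and 3 higher (5.45%). Its median was 0.00, and of all genes 7.82% were called lower and 7.47% higher. The splicing, nuclear transport and mitosis lists had median mean counts of 523, 611 and 1291. At counts from 300 up to 1000, 16.5% of all genes were called lower, and at 1000 or more 20.6%. Against LacZ control the 3 lists had median log2 fold changes of -0.34, -0.18 and -0.26. In LacZ control over non-injected the medians were -0.12, -0.11 and -0.15, in the same order.

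Chaperones had 12 of 33 called lower (36.4%) and 3 higher (9.09%), in all 9 when every p-value shared the adjustment. The median mean count of chaperones was 1065, in a class where 20.6% of all genes were called lower and 9.78% higher. Subunits of the chaperonin that folds actin and tubulin were among the lower ones, with Cct4 at -0.91 ± 0.23 and Tcp1 at -0.82 ± 0.20 per the authors' deposited table (BH-adjusted p = 0.00389 and 0.00226), and the chaperone gene Hspa13 was higher at 1.25 ± 0.34 (BH-adjusted p = 0.0105). Tcp1 overlaps exons on the opposite strand. Proteasome genes went both ways, 11 lower (23.4%) and 5 higher (10.6%) of 47, from Psmd14 (-1.12 ± 0.28) to Psmd10 (1.37 ± 0.29) per the authors' deposited table (BH-adjusted p = 0.00317 and 0.000322). The list's median mean count was 460, in a class where 16.5% of all genes were called lower and 8.53% higher. The proteasome median was -0.36, with -0.02 against LacZ control and -0.15 in LacZ control over non-injected. Oxidative phosphorylation had 6 of 75 called lower (a share near the 7.82% of all genes) and 0 higher, with a median of -0.13, and 2 when every p-value shared the adjustment. DNA replication had 9 lower (16.7%) and 2 higher (3.70%) of 54. Its median mean count was 524, in a class where 16.5% of all genes were called lower.

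**Figure D3:**
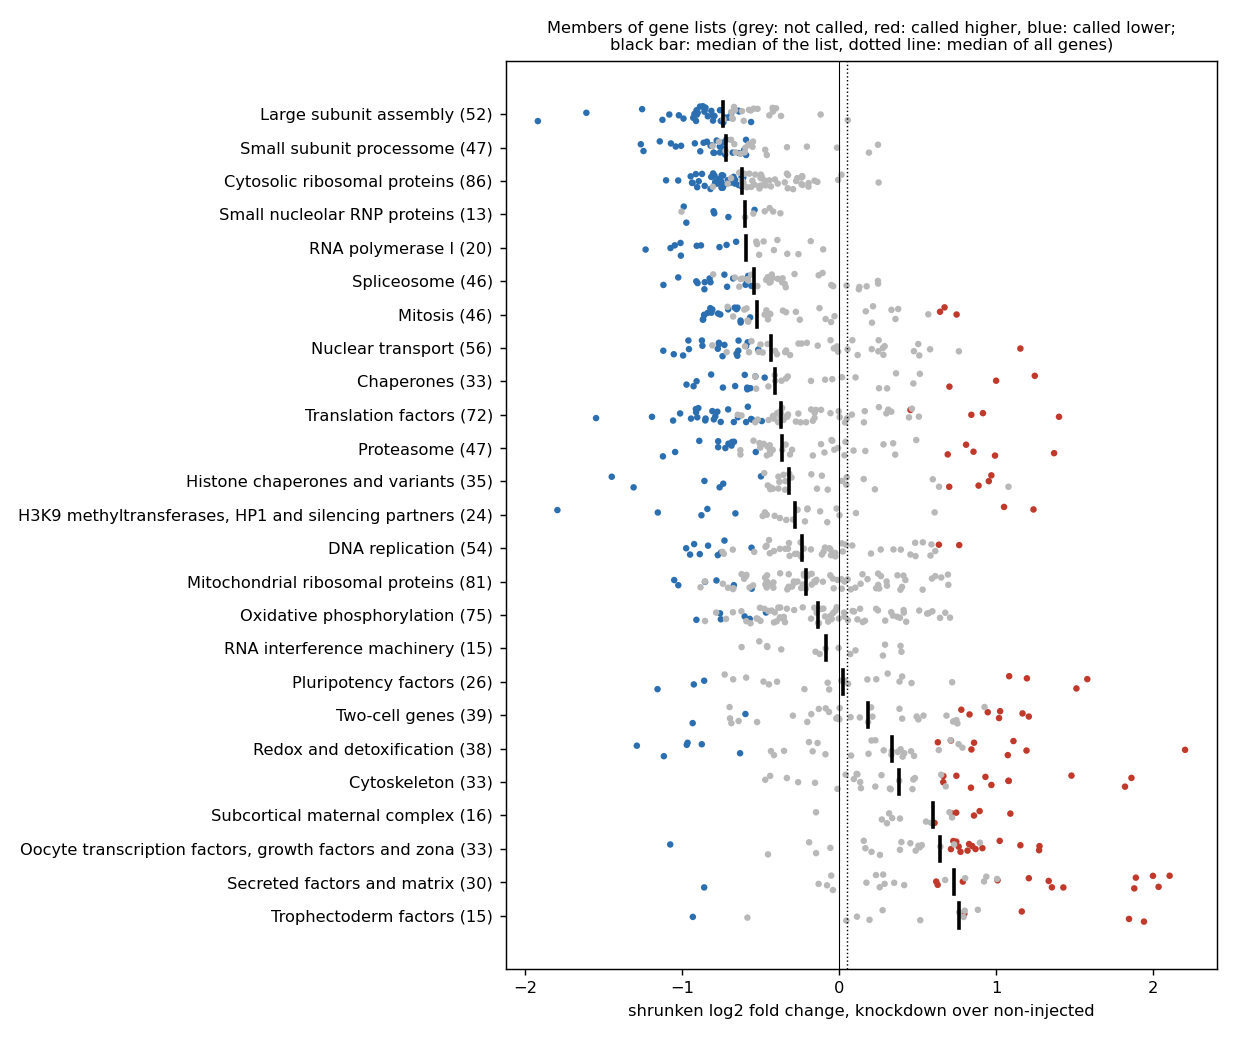
Log2 fold change in knockdown over non-injected of each member of 25 gene lists, 1 point per gene, with called genes in colour, the median of each list as a black bar and the number of members described in parentheses. The ribosome lists at the top hold no gene called higher, and the oocyte, secreted and trophectoderm lists at the bottom each hold 1 gene called lower.

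Messages of oocyte genes were higher in knockdown. Of 33 oocyte transcription factors, growth factors and zona proteins, 14 were called higher (42.4%, against 7.47% of all genes) and 1 lower, with a median of 0.64 and 28 positive values. Nobox, a transcription factor of oocytes, was higher by 1.27 ± 0.28 and Dazl, an RNA-binding protein of germ cells, by 0.91 ± 0.25 per the authors' deposited table (BH-adjusted p = 0.000396 and 0.00539). The growth factors Bmp15 and Gdf9, secreted by oocytes, were higher by 0.87 ± 0.24 and 0.76 ± 0.23 per the authors' deposited table (BH-adjusted p = 0.00752 and 0.0113). Against LacZ control they stood at 0.43 and 0.09, and in LacZ control over non-injected at 0.44 and 0.67, per the authors' deposited table. Of the zona proteins Zp2 was called, at 0.85 ± 0.19 (BH-adjusted p = 0.000840), and Zp3 was not, at -0.15 ± 0.19 per the authors' deposited table (BH-adjusted p = 0.669). The 1 member called lower was the kinase gene Stk35, at -1.08 ± 0.24 per the authors' deposited table (BH-adjusted p = 0.000544). The list's median was 0.16 against LacZ control and 0.44 in LacZ control over non-injected.

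The subcortical maternal complex, a structure under the membrane of eggs that is needed for cleavage, had 6 of 16 genes called higher and 0 lower, with a median of 0.60 (0.24 against LacZ control), and 3 of the calls were left when every p-value shared the adjustment. Nlrp4f stood at 1.09 ± 0.21 (BH-adjusted p = 5.73e-05) and 0.15 against LacZ control per the authors' deposited table, and Nlrp5 was not called, at 0.34 ± 0.21 (BH-adjusted p = 0.265). The Nlrp genes include near-identical copies, so values of single copies are uncertain. Promoter windows of 15 of these genes held a median of 2 CpG dinucleotides and those of 25 oocyte genes a median of 7, against 20 in all windows. Among genes that store or clear maternal messages, 5 of 34 were called higher and 1 lower. Btg4, an adaptor of the deadenylase that removes maternal messages (mean count 15896), was higher by 0.90 ± 0.23 and Zar1, which stores them in oocytes, by 1.03 ± 0.33 per the authors' deposited table (BH-adjusted p = 0.00271 and 0.0212). Cnot1, the scaffold of the deadenylase, fell by 0.68 ± 0.21 per the authors' deposited table (BH-adjusted p = 0.0142). The maternal chromatin genes H1foo, Npm2 and Npm3 were also higher, at 0.89, 0.97 and 0.95 per the authors' deposited table, with 0.14, 0.25 and 0.25 against LacZ control.

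Genes that mark the 2-cell stage gave a mixed picture. Of 39, 7 were called higher (17.9%, against 7.47% of all genes) and 2 lower (5.13%, against 7.82%). The median was 0.18 in knockdown over non-injected, -0.15 against LacZ control and 0.31 in LacZ control over non-injected. Zscan4f stood at 1.21 ± 0.30, Tdpoz3 at 1.17 ± 0.27 and Tcstv1 at 1.03 ± 0.26 per the authors' deposited table (BH-adjusted p = 0.00204, 0.000836 and 0.00201). The same 3 stood at 0.65, 0.38 and -0.03 against LacZ control per the authors' deposited table. Zscan4d and Zfp352 were not called, at 0.50 ± 0.29 and 0.18 ± 0.22. These families consist of near-identical copies, and the split of reads among them is uncertain. Among regulators of genome activation, 4 Obox homeobox genes (Obox1, Obox2, Obox5 and Obox7) were called higher, between 0.83 and 1.10 per the authors' deposited table, and Obox8 lower, at -1.06 ± 0.25 (BH-adjusted p = 0.00161). The 4 stood between 0.05 and 0.22 against LacZ control per the authors' deposited table. Dppa2, an activator of 2-cell genes, fell by 0.85 ± 0.23 per the authors' deposited table (BH-adjusted p = 0.00541).

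Lineage and pluripotency genes moved singly. Pou5f1, which encodes the pluripotency factor OCT4 (chromosome 17, 35506018 to 35510772), was 2.99-fold higher at 1.58 ± 0.27 per the authors' deposited table (BH-adjusted p = 4.46e-06), with 0.68 against LacZ control and 0.90 in LacZ control over non-injected. Its exons overlap Gm19553 on the opposite strand. Lin28a, which binds messages and microRNA precursors, was higher by 1.08 ± 0.29, and Tdgf1 and Utf1, weakly expressed with mean counts of 18.3 and 31.7, by 1.51 ± 0.40 and 1.20 ± 0.38 per the authors' deposited table (BH-adjusted p = 0.00424, 0.00907 and 0.0377). Fbxo15, Myc and Fgf4 were called lower, at -0.93, -1.16 and -0.86 per the authors' deposited table, and Klf4, Sox2 and Dppa3 were not called. The list as a whole had 4 higher, 3 lower and a median of 0.02 over 26 genes. Keratins of the trophectoderm, Krt18 and Krt8, rose by 1.94 ± 0.34 and 1.85 ± 0.37 per the authors' deposited table (BH-adjusted p = 1.24e-05 and 0.000116), and Tead4, a factor of the same lineage, fell by 0.93 ± 0.32 (BH-adjusted p = 0.0320). The trophectoderm list had 4 of 15 called higher, with a median mean count of 49.6; at mean counts of 100 or more its median was 0.05 over 5 genes, with 2 called.

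Secreted and matrix genes had 13 of 30 called higher (43.3%) and 1 lower, with a median of 0.73. Their median was 0.48 against LacZ control and 0.27 in LacZ control over non-injected. Sparc, a matrix protein, stood at 2.00 ± 0.36 and Fgf15, a growth factor, at 2.11 ± 0.40 per the authors' deposited table (BH-adjusted p = 9.57e-05 and 0.000147). Sparc and Fgf15 had 1.82 and 1.94 against LacZ control per the authors' deposited table, whereas the chemokine Ccl11, at 1.88 ± 0.40 (BH-adjusted p = 0.000151), had 0.24. These are weakly expressed genes, with a median mean count of 35.0 over the list and 4 calls at mean counts of 100 or more, and the list was drawn up knowing that some of its members differ in these libraries. Of 33 cytoskeleton genes 11 were called higher (33.3%, against 7.47% of all genes) and 0 lower. Calls numbered 7 when every p-value shared the adjustment and 6 at mean counts of 100 or more. The cytoskeleton median was 0.38, with 0.19 against LacZ control and 0.19 in LacZ control over non-injected. Myh14, a myosin heavy chain, Tagln2, an actin-binding protein, and Tubb2b, a tubulin, rose by 1.86 ± 0.36, 1.82 ± 0.38 and 1.48 ± 0.31 per the authors' deposited table (BH-adjusted p = 0.000142, 0.000296 and 0.000273), and the actin gene Actb was not called, at 0.48 ± 0.28 (BH-adjusted p = 0.235).

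Of 38 redox genes 8 were called higher (21.1%, against 7.47% of all genes) and 6 lower (15.8%, against 7.82%), with a median of 0.33. Among those lower, Gclc and Gclm, the subunits of the enzyme that starts glutathione synthesis, stood at -1.29 ± 0.27 and -1.12 ± 0.29 per the authors' deposited table (BH-adjusted p = 0.000447 and 0.00342). The enzyme that completes the synthesis, Gss, stood at -0.87 ± 0.32 and the reductase Gsr at -0.97 ± 0.26 per the authors' deposited table (BH-adjusted p = 0.0429 and 0.00384), and the call of Gss was lost when every p-value shared the adjustment (adjusted p = 0.0866). Those higher included the aldo-keto reductase gene Akr1b3 at 1.19 ± 0.24 and the glutathione transferase gene Gstm5 at 1.11 ± 0.27 per the authors' deposited table (BH-adjusted p = 0.000156 and 0.00162), beside Akr1b8 above. Among single genes of carbon metabolism, G6pdx, the entry enzyme of the pentose phosphate pathway, rose by 1.26 ± 0.23 and Ldhb, a lactate dehydrogenase subunit with a mean count of 6028, by 1.13 ± 0.22 per the authors' deposited table (BH-adjusted p = 1.68e-05 and 9.57e-05), with 0.47 and 0.17 against LacZ control. Of 32 glycolysis and pyruvate genes, Ldhb was the 1 called higher and 1 was called lower. That is 3.13% each, against 7.47% and 7.82% of all genes, with a median of -0.08. Mat2a, which makes the methyl donor S-adenosylmethionine, and Psat1 of serine synthesis fell by 1.15 ± 0.23 and 1.14 ± 0.22 per the authors' deposited table (BH-adjusted p = 9.37e-05 and 6.67e-05).

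Of the chromatin genes, Suv39h2 itself had the lowest value. Of 24 genes for H3K9 methyltransferases, HP1 proteins and silencing partners, 5 were called lower (20.8%), Suv39h2 included, and 2 higher (8.33%). The list has a median mean count of 487, in a class where 16.5% of all genes were called lower and 8.53% higher. Its median log2 fold change was -0.28 against non-injected, -0.30 against LacZ control and 0.00 between the controls. Fam208a, a subunit of the HUSH silencing complex, stood at -1.15 ± 0.24, Morc2a, its partner ATPase, at -0.88 ± 0.24 and Pphln1, another subunit, at -0.84 ± 0.25 per the authors' deposited table (BH-adjusted p = 0.000198, 0.00384 and 0.0132). Ehmt1, which places the dimethyl mark at H3K9, stood at -0.66 ± 0.21 per the authors' deposited table (BH-adjusted p = 0.0191). Cbx1, the HP1 beta gene, was higher at 1.05 ± 0.24 (BH-adjusted p = 0.000779), while the HP1 genes Cbx3 and Cbx5 and the methyltransferase Setdb1 were not called, at -0.12 ± 0.26, -0.20 ± 0.21 and -0.38 ± 0.24 per the authors' deposited table. Among histone chaperones, Actr6 and Oip5, which serve the deposition of H2A.Z and of the centromeric histone, fell by 1.45 ± 0.32 and 1.31 ± 0.29 per the authors' deposited table (BH-adjusted p = 0.000653 and 0.00142), with -1.27 and -1.28 against LacZ control. Remodelling ATPase genes Smarca5 and Chd1 were lower, at -0.85 and -0.71, and Smarca2 higher, at 0.80 per the authors' deposited table. Polycomb genes had 1 of 29 called higher (3.45%) and 2 lower (6.90%), and DNA methylation genes 1 higher (Dnmt3l) and 1 lower (Tet1) of 15 (6.67% each). Of all genes 7.47% were called higher and 7.82% lower.

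Genes of RNA sensing and RNA interference held at most 2 calls a list. Of 21 genes for sensing double-stranded RNA and for interferon that reached the minimum, of 40 in the list, 2 were called higher (9.52%, against 7.47% of all genes) and 0 lower, with a median of -0.01: Ddx58, the RNA sensor RIG-I, at 1.15 ± 0.28 and the chemokine Cxcl10 at 0.79 ± 0.40 per the authors' deposited table (BH-adjusted p = 0.00180 and 0.0440). The call of Cxcl10 was lost when every p-value shared the adjustment (adjusted p = 0.0887). In the 15 RNA interference genes 0 were called by DESeq2 in either direction, with values from -0.62 to 0.40 and 2 genes at an unadjusted p under 0.05. Dicer1 stood at -0.37 ± 0.23 and Ago2 at -0.51 ± 0.28 per the authors' deposited table (BH-adjusted p = 0.289 and 0.216). Of 35 p53 targets and apoptosis genes 2 were called higher (Btg2 and Ccng1) and 1 lower (Gadd45a, at -0.95 ± 0.28 per the authors' deposited table, BH-adjusted p = 0.00890). These shares, 5.71% and 2.86%, were below the 7.47% and 7.82% of all genes. Zinc finger genes named Zfp with a number had 23 of 292 called lower (7.88%, near the 7.82% of all genes) and 5 higher (1.71%, against 7.47%).

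Markers of other cells were examined by their mean counts. Of 23 cumulus and granulosa markers 3 were listed at 0 and 5 reached a mean count of 10, of which 0 were called by DESeq2 and 3 had an unadjusted p under 0.05. Amh, Foxl2, Fshr and Inha were under 1, and the highest was Amhr2 at 407, with a log2 fold change of -0.58. The others that reached 10 were Tnfaip6 (36.5), Runx2 (22.1), Cyp19a1 (16.1) and Ptgs2 (10.7). Their log2 fold changes lay from 0.23 to 0.76 per the authors' deposited table. Of 18 sperm transcripts 4 reached 10. The highest was Odf2, a protein of sperm tails and of centrosomes, at 2138, followed by Oaz3 at 81.1, Ldhc at 54.8 and Tssk6 at 44.4. Under 10 stood the protamine genes Prm1 and Prm2, at 0.896 and 7.78, and the transition protein gene Tnp1, at 1.58. Of the sperm transcripts Ldhc was called lower, at -1.05 ± 0.33 per the authors' deposited table (BH-adjusted p = 0.0268), a call lost when every p-value shared the adjustment. Odf2 and Amhr2 exceed the median mean count of all genes, 111. The part of other cells in the results was not tested. All 11 markers that define the embryo and egg, from Mos (38.4) to Bmp15 (8077), were present. Of these 5 were called higher (45.5%, against 7.47% of all genes) and 0 lower. Their median was 0.50, with -0.06 against LacZ control and 0.44 in LacZ control over non-injected. Some of them, such as Bmp15 and Gdf9, are also described among the groups above.

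**Figure D4:**
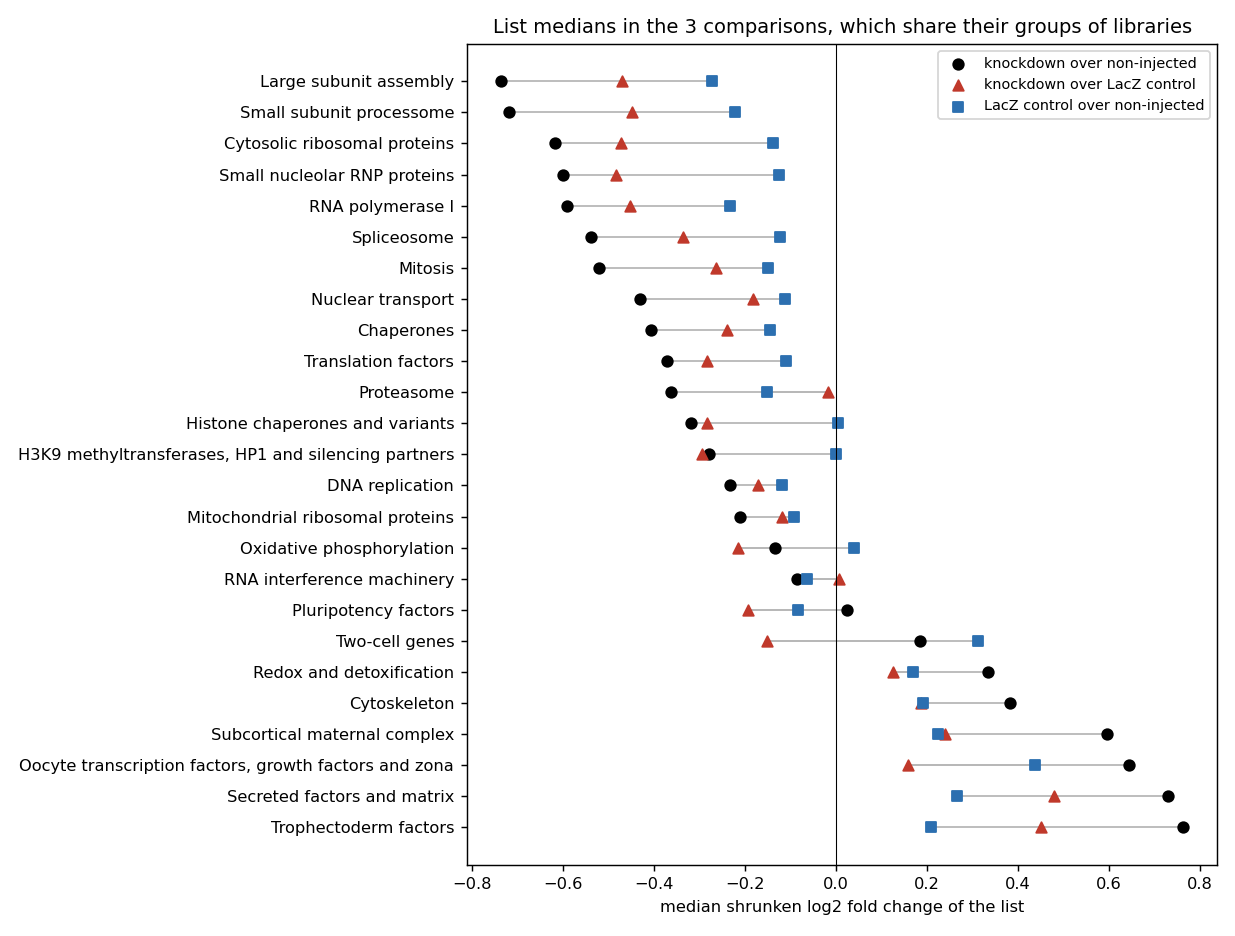
Median log2 fold change of 25 gene lists in knockdown over non-injected (black circles), knockdown over LacZ control (red triangles) and LacZ control over non-injected (blue squares). For the large subunit assembly list the 3 medians are -0.74, -0.47 and -0.27, and for 2-cell genes 0.18, -0.15 and 0.31.

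Of 858 repeat elements 57 were called (6.64%), 31 higher (3.61%) and 26 lower (3.03%). Repeats and genes stand in separate tables, and the sources used here do not state how repeats were normalized and adjusted. These shares are therefore not set against those of genes. The repeat table does not state its direction, which was read as knockdown over non-injected because the 8 satellite-like genes of the gene table that reached a mean count of 10 had the sign of the major satellite in every comparison. The name of the repeat table puts the non-injected group first, the other order from the gene table. Should its values have been coded in that order, every repeat value below would change sign. The direction of the satellites is therefore no result of its own. The median of all elements was 0.10. The deposited adjusted p of repeats is not that of the repeats alone, and adjusted over the repeats alone 18 elements were called, 10 higher and 8 lower.

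The smallest p-values were those of long terminal repeats. RLTR13D3, an ERVK element, stood at -0.99 ± 0.19, a 1.98-fold difference, per the authors' deposited table (BH-adjusted p = 1.51e-05), and at -0.78 against LacZ control. ORR1E-INT, the internal part of a MaLR element, stood at 0.87 ± 0.19, RLTR17 at 0.84 ± 0.19 and MYSERV-INT at 0.80 ± 0.18 per the authors' deposited table (BH-adjusted p = 0.000218, 0.000382 and 0.000404). Among LINE-1 elements, L1_MM was lower at -0.65 ± 0.15 and the older L1MDB higher at 0.82 ± 0.19 per the authors' deposited table (BH-adjusted p = 0.000439 and 0.000706). All of these kept an adjusted p under 0.05 over the repeats alone. ERVK elements had 13 called higher and 8 lower of 261, and ERV1 elements 1 higher and 6 lower of 94. The shares over all elements were 3.61% higher and 3.03% lower.

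Within the MaLR family 2 groups, separated after the values were seen and so given without a test, stood on opposite sides of 0. All 10 ORR1A elements were negative, from -0.80 (ORR1A1-INT) to -0.12 (ORR1A3-INT) per the authors' deposited table, with 5 called lower and a median of -0.45 (-0.44 against LacZ control and 0.04 in LacZ control over non-injected). Of 19 MT elements, abundant in oocyte transcripts, 3 were called higher and 0 lower, with a median of 0.19 (-0.00 against LacZ control, 0.26 in LacZ control over non-injected). MTA_MM, with the largest mean count among these (1289519), stood at 0.63 ± 0.20, MTA_MM-INT at 0.64 ± 0.19 and MTB at 0.45 ± 0.16 per the authors' deposited table (BH-adjusted p = 0.0147, 0.00968 and 0.0284). Over the repeats alone none of these MT elements was called, and of the 5 ORR1A elements 1 was, ORR1A1-INT.

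The retrovirus of the 2-cell stage was not called: MERVL-INT stood at -0.36 ± 0.22 and its promoter repeat MT2_MM at -0.27 ± 0.21 per the authors' deposited table (BH-adjusted p = 0.265 and 0.391). Their values against LacZ control were -0.32 and -0.31. The related MT2C_MM was called lower at -0.45 ± 0.16 per the authors' deposited table (BH-adjusted p = 0.0352). Of 24 IAP elements, retroviruses of the ERVK family, 0 were called by DESeq2 and 1 had an unadjusted p under 0.05. Of 6 young LINE-1 elements of the L1Md group 0 were called and 0 had an unadjusted p under 0.05, with values from -0.21 to 0.18. That group was taken by name and leaves out L1_MM, the LINE-1 element called lower above. Of all elements 6.64% were called, and whether 0 calls in groups of 24 and 6 differ from that share was not tested. GSAT_MM, the major satellite of the heterochromatin around centromeres, was called, at -0.92 ± 0.30 per the authors' deposited table (BH-adjusted p = 0.0231, 0.108 over the repeats alone), with -1.14 against LacZ control and 0.37 in LacZ control over non-injected. Its sign was used to read the direction of the repeat tables. The other called elements of the satellite group were MURSATREP1, lower at -0.44, and IMPB_01, higher at 0.52, per the authors' deposited table. Adjusted over the repeats alone neither was called.

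**Figure D5:**
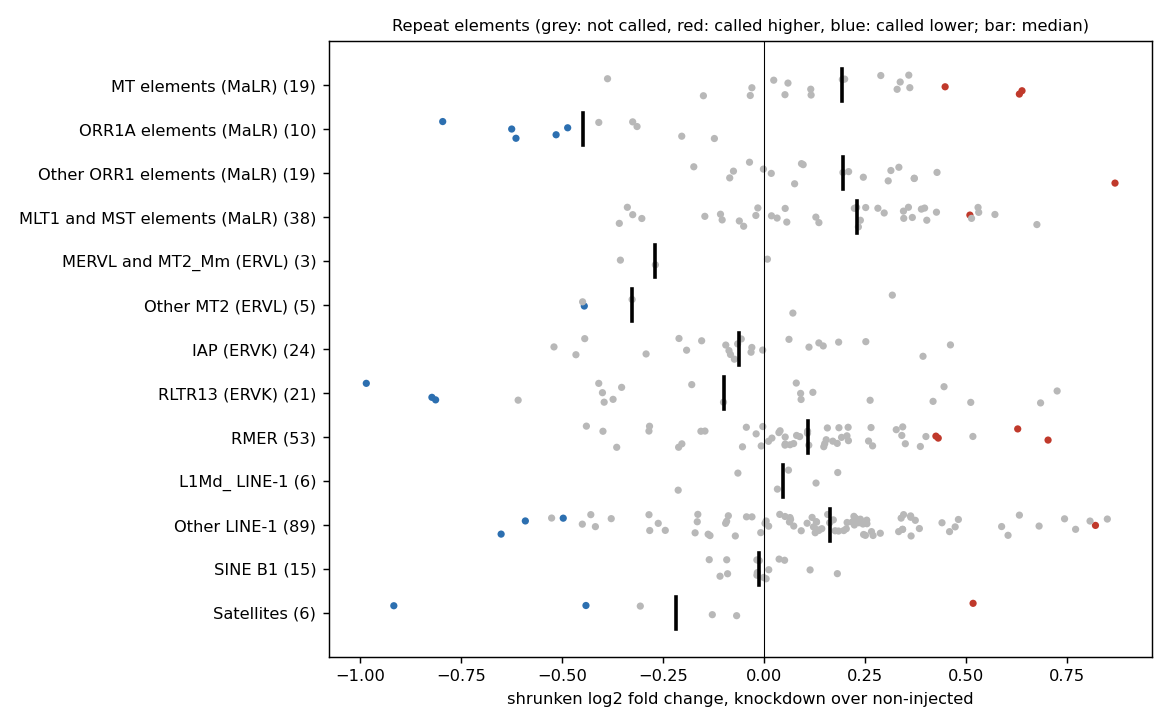
Log2 fold change of repeat elements in knockdown over non-injected by group, 1 point per element, with called elements in colour and the median of each group as a bar. All 10 ORR1A elements lie below 0, with a median of -0.45, and the 3 called MT elements lie between 0.45 and 0.64.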

How the data were processed

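RNA with a poly(A) tail from 2-cell embryos was sequenced with Smart-seq2, per the labels. Reads were aligned with STAR 2.5.2b and counted with HTSeq 0.9.1, and groups were compared with DESeq2 1.18.1 on GRCm38.p5, per the submitters' processing notes; the names of the deposited tables also give RUVseq and shrinkage. For the order of steps and their settings the sources used here give nothing. The authors deposited result tables: a mean signal over libraries (counts divided by size factors), a log2 fold change and the standard error of it, a Wald statistic used here as a score, and a p-value with its adjusted form. The deposited files used hold 0 columns of single libraries, so depth per library is unknown and no model was refitted. The log2 values of the 3 gene comparisons add up to within 4.16e-08. Benjamini-Hochberg adjustment over the 14948 genes with a deposited adjusted p gave the authors' values back to within 2.64e-15, which was also tested on simulated data. Whether repeats were normalized and adjusted together with genes is not stated in the sources used here. The adjusted p of repeats differed by up to 0.218 from adjustment over the repeats alone.

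Gene identifiers were named from GENCODE M21 (49326 of 49585, 99.5%), and promoters are RefSeq windows on GRCm38.p6. Genes and repeats with a mean count of 10 or more and a deposited adjusted p under 0.05 were called. For repeats, direction was read from 8 satellite-like genes. These ranged from -1.05 to -0.41 in knockdown over non-injected, -1.67 to -0.67 against LacZ control and 0.27 to 0.68 in LacZ control over non-injected. None of the 8 was called. Named genes were the target, the 12 largest and 12 smallest Wald statistics, the largest changes among genes with a mean count of 1000 or more and among long noncoding genes, called list members with the smallest p-values, and members known for their roles. The members and gene lists were chosen with earlier results of these data known, and the ORR1A, MT and L1Md groups of repeats after their values were seen. Alternatives were other adjustments, mean count minimums, thresholds and gene sets. Values were handled with Python 3.11.15 and pandas 2.3.3.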

Additional observations from a re-analysis of the deposited data

Results flagged for a closer look

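Genes with a mean count under 10 lie outside the comparison, and nearly all of them have no deposited adjusted p. When all p-values shared 1 adjustment, 151 of 18198 such genes (0.830%) passed 0.05 in knockdown over non-injected, 144 with a positive and 7 with a negative value. The median mean count of the 151 was 1.14. In the same adjustment, 36 genes under that count passed against LacZ control and 138 in LacZ control over non-injected. The smallest p-value of all genes was that of Eno2, an enolase, with a mean count of 2.24, a shrunken log2 fold change of 0.62 and p = 4.51e-24 from DESeq2 in the authors' deposited table. The kinase gene Pdk4, with a mean count of 3.67, stood at 0.42 in the authors' deposited table. The largest absolute Wald statistic was 10.1 among these weakly expressed genes and 6.70 among those with a mean count of 10 or more. For Eno2 the statistic was 10.1 while the shrunken value was 0.62 with a standard error of 0.31, so its p is not that of the shrunken value. What the large statistics of such low counts rest on was not tested.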

How the results depend on the processing

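No paired analysis was possible because the tables hold no values of single libraries, and for the same reason no library could be left out in turn. Adjusted p under 0.01 left 974 genes (485 higher, 489 lower) and 20 repeats (12 higher, 8 lower). A log2 fold change of at least 1 in size left 736 genes (481 higher, 255 lower). A mean count of 100 or more left 696 genes higher, and leaving out genes with exon overlap on the opposite strand left 749 lower. Adjustment over the repeats alone left 18 (10 higher, 8 lower), and over repeats with a mean count of 10 or more 25 (13 higher, 12 lower). The cause of the lower count of repeats under adjustment over repeats was not tested. Under the other alternatives the counts stayed within 1.5 times the main ones: adjustment over every p-value gave 1603 genes, all 1603 among the 2268. Of the genes named, 29 were no longer called there. List counts that moved numbered 13 under that adjustment and 9 with the minimum raised to 100. Unknown depth per library and shrinkage of the deposited fold changes limit the precision of weakly expressed genes.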
